A study of Mus musculus with 30 samples.

Results

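The genes described here are 10 genes of the heat shock and cold-inducible response, taken by name from the 20764 genes of the heart count table and the 54532 genes of the cell line count table, and all 10 were found in both. They are the inducible Hsp70 gene Hspa1b, the constitutive Hsp70 gene Hspa8, the Hsp110 gene Hsph1, the cytosolic Hsp90 genes Hsp90aa1 and Hsp90ab1, the mitochondrial chaperonin genes Hspd1 and Hspe1, the Hsp40 gene Dnajb1, and the genes of the cold-inducible RNA-binding proteins Cirbp and Rbm3. They were chosen as a group of known function, with earlier results of these data known.

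The RNA libraries are of 18 female mouse hearts (labelled C57BL6, of a mixed C57Bl6J/N background) and of 12 cultures labelled HL-1, a line derived from an atrial tumour of a mouse, with 3 libraries a group. Young mice were 2 months old and drank water without nicotinamide riboside (NR, a precursor of NAD+; label MQ). Old mice were 12 months old and drank either the same water (old) or water with NR at 3 g/l from the age of 2 months (old NR), and NR was not given to young mice. Each of these groups was taken at Zeitgeber time (ZT, hours after lights on) ZT10, in the light phase, and ZT22, in the dark phase. The HL-1 cells were controls (Ctrl), were treated with FK866 (FK), which blocks the NAD+ salvage enzyme NAMPT, with FK866 and NR (FK_NR), or with FK866, NR and the SIRT1 inhibitor Ex527 (FK_NR_Ex). The study describes its cell replicates as wells cultured apart, so the p-values of the HL-1 libraries measure the spread between wells of 1 line.

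Heat shock proteins are chaperones, which bind unfolded protein, hold it and help it fold. In stressed cells, heat shock factor 1 (HSF1) is released from chaperones, binds repeats of GAA and its complement TTC in front of their genes, and switches them on. Mammalian body temperature has a daily rhythm that is high in the active phase, which for mice is the night, and in tissues such as the liver HSF1 target genes are known to peak with it. Cirbp and Rbm3 respond in the opposite way: their RNA accumulates when cells are slightly cooled, and their proteins bind other RNAs, including those of the clock, and alter their processing.

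Promoters from RefSeq (GRCm38.p6) were given for 6 of the 10 genes, in 10 entries, and the 250 bases before each start were searched on both strands for the letters of these responses. The others, Hspa8, Hsp90aa1, Hsp90ab1 and Rbm3, had no entry. A pair of facing heat shock units (GAANNTTC or TTCNNGAA) was held by 12.8% of the 32851 promoters of this length, and a run of 3 alternating units with the same spacing, which contains such pairs, by 0.466%. The E-box of the clock (CACGTG) was held by 6.02% and the mild cold response element (TCCCCGCC or its reverse complement GGCGGGGA) by 4.64%. A match describes letters only. The sequences below are shown because they belong to the genes with the widest daily differences or carry the longest run of units, and the capitals mark every match. The Hspa1b promoter (chr17:34959239-34959488, minus strand) held 1 pair of units and 1 reversed mild cold element. The Hspe1 stretch (chr1:55088053-55088082, plus strand) held 2 overlapping runs of 3 units, which also lie before the second RefSeq start of Hspd1. The Hsph1 stretch (chr5:149636351-149636380, minus strand) held 1 pair, and the Cirbp promoter (chr10:80167589-80167777, plus strand) held 1 mild cold element.
Hspa1b: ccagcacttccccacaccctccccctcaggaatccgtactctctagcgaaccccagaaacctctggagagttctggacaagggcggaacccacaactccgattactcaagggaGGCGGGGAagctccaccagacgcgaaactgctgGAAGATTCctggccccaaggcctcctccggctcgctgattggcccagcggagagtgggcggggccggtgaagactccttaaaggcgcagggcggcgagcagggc
Hspe1: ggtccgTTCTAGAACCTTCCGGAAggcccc
Hsph1: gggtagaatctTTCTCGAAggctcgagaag
Cirbp: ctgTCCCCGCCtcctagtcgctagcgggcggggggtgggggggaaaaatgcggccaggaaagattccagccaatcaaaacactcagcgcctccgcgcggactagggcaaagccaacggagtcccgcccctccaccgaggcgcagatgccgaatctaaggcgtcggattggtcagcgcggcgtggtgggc
Neither entry of Dnajb1 held any of these letters in this window. An E-box was held by the second entry of Hsph1, outside the stretch shown, and by the first entry of Hspd1.

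Hearts had between 3922137 and 7562215 counts and HL-1 libraries between 21337922 and 35000109. Genes of the clock separated the times in every heart, with the sum of 7 such genes between 4812 and 6214 normalised read counts at ZT10 and between 1830 and 2222 at ZT22. Markers of ventricular cardiomyocytes were present in every heart, with the sum of 8 genes between 29304 and 44803. In the HL-1 libraries the same 8 genes summed to between 6.84 and 114 normalised read counts, with 3 to 7 of the 8 at 0, and 5 atrial markers to between 8.34 and 44.3, whereas 4 fibroblast markers summed to between 16956 and 23813. The cardiomyocyte label of these libraries therefore goes against their markers, and they are called here by their label. The hearts of young ZT22 replicates 2 and 3 had the highest sums of 10 immediate-early genes, 3937 and 2850. These genes, such as Fos and Egr1, respond within minutes to stress or handling. Replicate 1 had 2340 and the 15 hearts of the other groups had between 1883 and 2752, so replicate 3 lay just above that range.

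Per length of exon, the constitutive chaperones led in the heart. Averaged over the 18 hearts, Hsp90ab1 stood at 191 ± 24.0 counts per kilobase of exon, scaled by library total as in RPKM (SD, n = 18), Hspd1 at 90.3 ± 7.61, Hspa8 at 42.1 ± 6.61 and Hspe1 at 35.4 ± 3.73. Cirbp followed at 29.9 ± 6.93, Hsp90aa1 at 26.2 ± 5.52, Hsph1 at 20.1 ± 4.85, Dnajb1 at 16.3 ± 3.67, Rbm3 at 11.1 ± 1.47 and Hspa1b at 2.24 ± 2.35. These SDs include the differences between groups. The ranges over hearts of Hsp90ab1 and Hspd1 did not overlap each other or that of any lower gene, whereas from Hspa8 downwards each gene's range overlapped that of its neighbour. In the HL-1 libraries, in FPKM as deposited, Hsp90ab1 was again the highest, at 2067 ± 151 (SD, n = 12). Hsp90aa1 stood at 555 ± 55.9, Hspd1 at 550 ± 58.3, Hspa8 at 350.0 ± 34.4, Hspe1 at 182 ± 24.5 and Rbm3 at 75.8 ± 7.71. Lower were Hsph1 at 41.4 ± 4.13, Dnajb1 at 24.1 ± 1.59, Cirbp at 11.6 ± 0.870 and Hspa1b at 0.817 ± 0.169. Cirbp thus ranked above Rbm3 in hearts and below it in the HL-1 libraries.

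**Figure D1:**
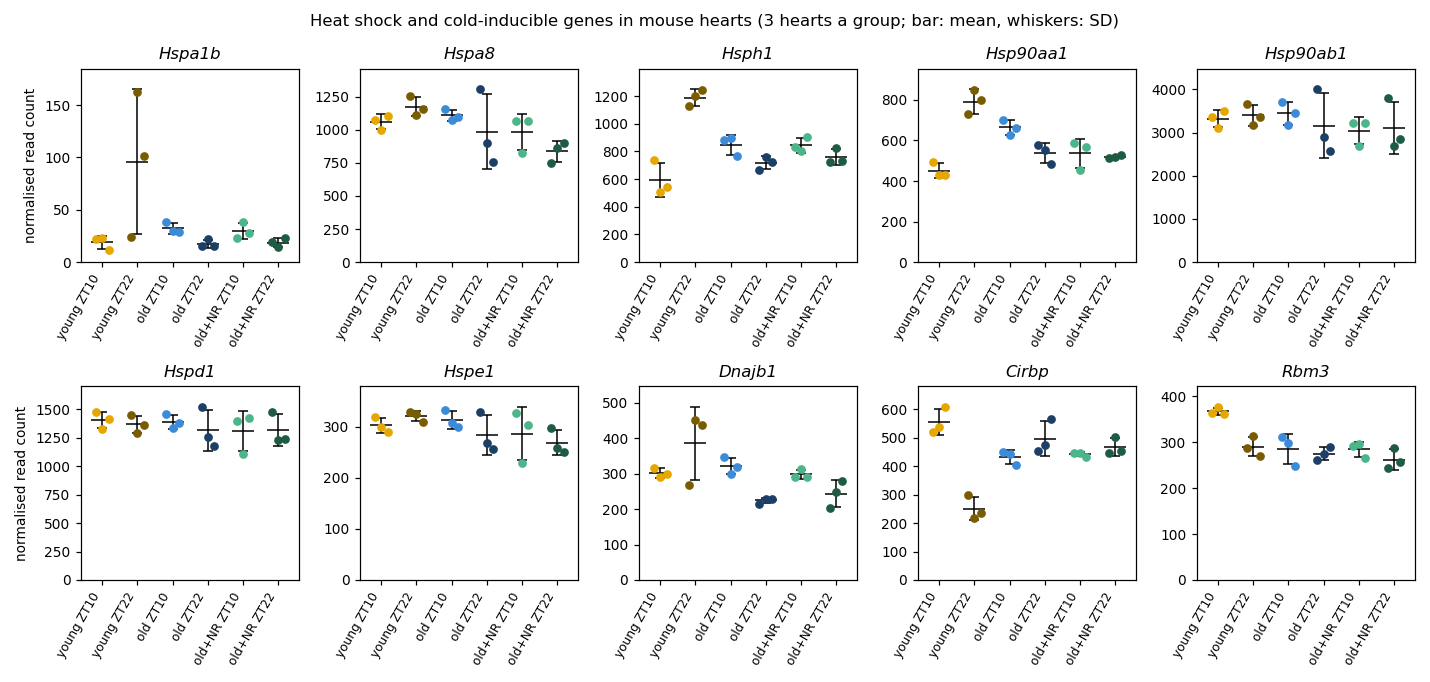
Normalised read counts (vertical axis, from 0) of the 10 genes in each of the 18 hearts, by age, NR and Zeitgeber time; points are hearts, the bar is the mean and the whiskers the SD of 3. Hsph1 and Hsp90aa1 were highest and Cirbp lowest in the young hearts at ZT22, and 2 of those hearts alone carried high Hspa1b.

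The first question was whether these genes differed between day and night in young hearts. In young hearts, 5 of the 10 genes differed between ZT10 and ZT22, against 14.4% of the 15443 genes tested (edgeR's quasi-likelihood test, Benjamini-Hochberg adjusted p under 0.05). The stress-inducible chaperones Hspa1b, Hsph1 and Hsp90aa1 were higher at ZT22, in the dark phase, and the cold-inducible Cirbp and Rbm3 were higher at ZT10, in the light phase. Neither Hsp90ab1 nor the mitochondrial pair was called. The median log2 fold change of the 10 genes, ZT10 over ZT22, was -0.12. The sum of 4 endothelial markers was between 6690 and 7055 at ZT10 and between 7760 and 8523 at ZT22, with 1 of the 4 called lower at ZT10, and its part in these results was not tested. In bulk tissue, fewer cells of a type and less RNA per cell cannot be told apart.

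Among the inducible chaperones, Hsph1 (chromosome 5, 149614287 to 149636376, minus strand), whose protein exchanges the nucleotide of Hsp70 and holds unfolded protein, had 736, 504 and 541 normalised read counts at ZT10 in replicates 1 to 3 and 1127, 1199 and 1245 at ZT22. Every ZT22 heart lay above every ZT10 heart. The log2 fold change, ZT10 over ZT22, was -1.004 ± 0.103 (SE), or 2.01-fold higher at ZT22, with an adjusted p of 6.28e-07 by edgeR.

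Hsp90aa1 (chromosome 12, 110690605 to 110702728, minus strand), the inducible cytosolic Hsp90, had 492, 430 and 428 normalised read counts at ZT10 and 729, 849 and 799 at ZT22. The groups again did not overlap, and the log2 fold change was -0.82 ± 0.09 (adjusted p = 1.53e-06 by edgeR). Its partner Hsp90ab1 (chromosome 17, 45567775 to 45573271, minus strand), which cells make without stress, had between 3116 and 3496 at ZT10 and between 3168 and 3663 at ZT22. The groups overlapped and the log2 fold change was -0.03 ± 0.14.

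Hspa1b (chromosome 17, 34956436 to 34959238, minus strand), the Hsp70 that is nearly silent without stress, had 22.2, 22.8 and 11.3 normalised read counts at ZT10 and 24.1, 162 and 101 at ZT22. The difference lay in 2 of the 3 ZT22 hearts, the same that had the highest immediate-early sums, 3937 and 2850. The first heart at ZT22 lay close to the highest ZT10 heart. The log2 fold change was -2.37 ± 0.43 (adjusted p = 0.000665 by edgeR). With the first heart alone as the young ZT22 group, a fit chosen after the values were seen, it was -0.33 with an adjusted p of 0.804. Hspa1b shares 56.6% of the 2732 windows of 72 bases in its transcript with its copy Hspa1a, and reads with several matches were removed, so its counts are uncertain. Hspa1a itself had 17.7, 173 and 77.3 normalised read counts in the same 3 hearts and at most 31.5 in the 15 hearts of the other groups.

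Dnajb1 (chromosome 8, 83608193 to 83612653, plus strand), the Hsp40 that hands unfolded protein to Hsp70, had 317, 289 and 299 normalised read counts at ZT10 and 267, 451 and 437 at ZT22. The same 2 hearts lay above all others and the first lay below every ZT10 heart. The log2 fold change was -0.37 ± 0.13 and was not called (adjusted p = 0.0637 by edgeR). Without that first heart it was -0.56 and was called. The part of the immediate-early genes in these results was not tested.

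Of the cold-inducible genes, Cirbp (chromosome 10, 80165985 to 80172786, plus strand) had 521, 539 and 608 normalised read counts at ZT10 and 298, 219 and 237 at ZT22 in young hearts. All 3 ZT22 hearts lay below all 3 ZT10 hearts, and the log2 fold change was 1.16 ± 0.10, or 2.23-fold higher at ZT10 (adjusted p = 5.75e-08 by edgeR). Rbm3 (chromosome X, 8138975 to 8145880, minus strand) had 364, 376 and 362 at ZT10 and 288, 313 and 271 at ZT22. Its groups did not overlap either, with a smaller log2 fold change of 0.34 ± 0.08 (adjusted p = 0.00864 by edgeR), which was no longer called without young ZT22 replicate 3. With the first ZT22 heart alone, 3 of the 10 genes were called, Hsph1, Hsp90aa1 and Cirbp, and the genes called over the whole table fell from 2219 to 315 higher and 310 lower at ZT10.

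Hspa8 (chromosome 9, 40800984 to 40810087, plus strand), the housekeeping Hsp70, had between 998 and 1108 normalised read counts at ZT10 and between 1111 and 1253 at ZT22 in young hearts, groups that lay side by side without overlap. Its log2 fold change was -0.14 ± 0.13 and was not called. Hspd1 (chromosome 1, 55077835 to 55088243, minus strand), the Hsp60 that folds protein in mitochondria, and its lid Hspe1 (chromosome 1, 55088132 to 55091307, plus strand) run head to head and overlap at their starts, and had log2 fold changes of 0.04 ± 0.10 and -0.09 ± 0.11.

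The same comparison in old hearts without NR called 2 of the 10 genes, against 4.2% of all genes tested, and both were higher at ZT10. Hsp90aa1 had 702, 629 and 661 normalised read counts at ZT10 and 576, 553 and 482 at ZT22, with a log2 fold change of 0.32 ± 0.09 (adjusted p = 0.0444 by edgeR). Dnajb1 had 346, 298 and 320 at ZT10 and 215, 229 and 228 at ZT22, with a log2 fold change of 0.51 ± 0.14 (adjusted p = 0.0362 by edgeR). Neither gene's groups overlapped, but both calls lay near the threshold: leaving out 1 heart at a time, Dnajb1 was lost in 6 of 6 fits and Hsp90aa1 in 5 of 6. DESeq2 called 1 of the 10, and gave Hsp90aa1 an adjusted p of 0.0581.

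The widest daily differences of young hearts were not called in old hearts. Cirbp had 452, 442 and 403 normalised read counts at ZT10 and 453, 474 and 566 at ZT22, with a log2 fold change of -0.22 ± 0.09 (adjusted p = 0.224 by edgeR). All old hearts, with and without NR, lay between 403 and 566 for Cirbp, above every young ZT22 heart. Hsph1 had 884, 899 and 765 at ZT10 and 668, 762 and 725 at ZT22, groups that lay side by side with a log2 fold change of 0.24 ± 0.10 (adjusted p = 0.22). Hspa1b lay between 29.1 and 38.5 at ZT10 and between 14.99 and 21.8 at ZT22 without overlap, with a log2 fold change of 0.89 ± 0.51 (adjusted p = 0.373), and Rbm3 had one of 0.04 ± 0.09.

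Hspa8 and Hsp90ab1 spread widely in old hearts without NR at ZT22. There Hspa8 had 1307, 898 and 757 normalised read counts in replicates 1 to 3, and Hsp90ab1 had 4005, 2906 and 2575. The order of the hearts was the same as that of the sum of ventricular cardiomyocyte markers, which was 44803, 32729 and 29304, and the reverse of that of the library totals, which were 3922137, 6122256 and 7562215. The part of either in the result was not tested. Without old ZT22 replicate 1, Hspa8 was called in this comparison, with a log2 fold change of 0.42. In old NR hearts at ZT22, Hsp90ab1 spread alike, with 3805, 2681 and 2841 normalised read counts, whereas Hspa8 had 748, 864 and 901.

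In old NR hearts, 0 of the 10 genes were called between ZT10 and ZT22 by edgeR, against 5.37% of all genes tested. DESeq2 also called 0, and at an unadjusted p under 0.05 edgeR named 1 of the 10, Dnajb1, against 18% of all genes. Dnajb1 had 291, 313 and 291 normalised read counts at ZT10 and 203, 249 and 278 at ZT22, without overlap, with a log2 fold change of 0.28 ± 0.13 (adjusted p = 0.275). The log2 fold changes of the others lay between -0.08 for Cirbp and 0.69 for Hspa1b, whose groups (23.2 to 38.4 and 14.2 to 23.0) touched but did not overlap.

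**Figure D2:**
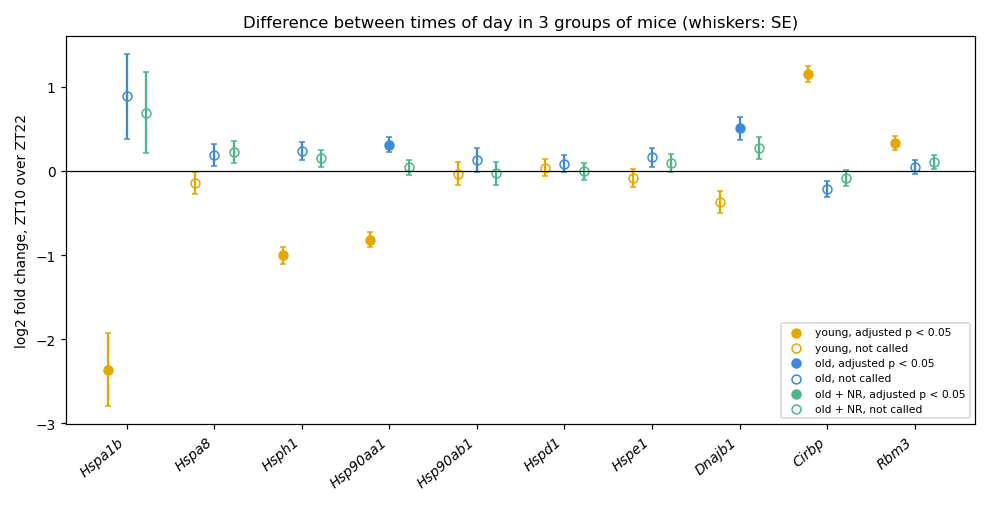
Log2 fold change between ZT10 and ZT22 (vertical axis, positive where ZT10 was higher) of the 10 genes in young, old and old NR hearts, with SE; filled points passed an adjusted p of 0.05 by edgeR. Hspa1b, Hsph1, Hsp90aa1 and Dnajb1 lie below 0 in young hearts and above 0 in both old groups, and Cirbp does the reverse.

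The difference between the daily differences was tested as the interaction of age and time, in old hearts without NR against young hearts. It was called for 5 of the 10 genes, against 6.89% of all genes tested: Hspa1b (3.25 ± 0.67 on the log2 scale, adjusted p = 0.00526 by edgeR), Hsph1 (1.24 ± 0.14, adjusted p = 2.51e-05), Hsp90aa1 (1.13 ± 0.13, adjusted p = 1.42e-05), Dnajb1 (0.88 ± 0.19, adjusted p = 0.00712) and Cirbp (-1.37 ± 0.14, adjusted p = 3.89e-06). The ZT10 to ZT22 difference in old hearts was thus shifted towards ZT10 for the 4 chaperones and towards ZT22 for Cirbp. For Rbm3 the interaction was -0.29 ± 0.12 and was not called (adjusted p = 0.153). With the first young ZT22 heart alone, the interaction was 1.22 for Hspa1b and 0.34 for Dnajb1. For Hsph1, Hsp90aa1 and Cirbp it was 1.16, 1.01 and -1.11. For the interaction of NR and time in old hearts, edgeR called 0 of the 10 genes, against 0.343% of all genes, as did DESeq2. At an unadjusted p under 0.05, edgeR named 1 of the 10, Hsp90aa1, against 10.3% of all genes. The interaction of Hsp90aa1 was -0.27 ± 0.12 (adjusted p = 0.454 by edgeR).

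Compared at the same time of day, old hearts without NR differed from young hearts in opposite directions at ZT10 and ZT22 for Hsph1, Hsp90aa1 and Cirbp, the 3 genes called at both times. These comparisons share hearts with those above. At ZT10, 4 of the 10 genes differed, against 5.87% of all genes: Hsph1 (log2 fold change 0.52 ± 0.10, adjusted p = 0.00444 by edgeR) and Hsp90aa1 (0.56 ± 0.09, adjusted p = 0.000673) were higher in old hearts, and Cirbp (-0.36 ± 0.09, adjusted p = 0.0243) and Rbm3 (-0.36 ± 0.08, adjusted p = 0.0121) were lower. The groups of these 4 genes did not overlap, which is not separate evidence, since the genes were picked by their call. For Hsph1, the highest young heart had 736 and the lowest old heart 765 normalised read counts. The call of Cirbp was lost in 4 of 6 fits that left out 1 heart and that of Rbm3 in 2 of 6. Without old ZT10 replicate 3, and likewise without young ZT10 replicate 2, both were lost.

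At ZT22, 5 of the 10 genes differed with age, against 14.1% of all genes. The sum of 4 macrophage markers was between 1166 and 1318 in old hearts and between 901 and 987 in young hearts, with 3 of the 4 called higher, and that of the 4 endothelial markers was between 6551 and 7704 against 7760 and 8523, with 1 called lower. Their part in these results was not tested. Hspa1b (log2 fold change -2.50 ± 0.43, adjusted p = 0.000513 by edgeR), Dnajb1 (-0.79 ± 0.13, adjusted p = 0.000466), Hsph1 (-0.72 ± 0.10, adjusted p = 6.17e-05) and Hsp90aa1 (-0.57 ± 0.09, adjusted p = 0.000165) were lower in old hearts. Cirbp was higher, with a log2 fold change of 1.01 ± 0.10 (adjusted p = 1.1e-06). The groups of these 5 genes did not overlap, which is not separate evidence, since the genes were picked by their call. For Hspa1b the groups nearly touched: the highest old heart had 21.8 and the lowest young heart 24.1 normalised read counts, from 24 and 19 raw counts. With the first young heart alone, the log2 fold changes were -0.47 for Hspa1b, -0.45 for Hsp90aa1 and -0.25 for Dnajb1. Those of Hsph1 and Cirbp were -0.64 and 0.75. Rbm3 had a log2 fold change of -0.07 ± 0.09. Hspa8 had one of -0.27 ± 0.13, which was called, at -0.50, without old ZT22 replicate 1.

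In old mice, NR left none of the 10 genes called at either time, by edgeR or by DESeq2. Of all genes, 0.285% were called at ZT10 and 0.35% at ZT22. At an unadjusted p under 0.05, edgeR named 1 of the 10 at ZT10 and 0 at ZT22, against 10.1% and 11.2% of all genes. The gene at ZT10 was Hsp90aa1, which had 588, 455 and 566 normalised read counts with NR against 702, 629 and 661 without. The groups did not overlap, and the log2 fold change was -0.31 ± 0.09 (adjusted p = 0.162). At this time the sum of the 5 atrial markers was between 632 and 735 with NR and between 2195 and 2856 without. The fibroblast sum was between 3843 and 4367 with NR and 4585 and 5265 without, and the adipose sum was higher with NR, 360 to 374 against 318 to 330. At ZT22 the fibroblast sum was between 4006 and 4499 with NR and 4685 and 5468 without, and the macrophage sum between 848 and 910 against 1166 and 1318. The part of these sums in the results was not tested. Log2 fold changes with NR lay between -0.31 and 0.03 at ZT10 and between -0.21 and 0.13 at ZT22. Their SEs were 0.08 to 0.14, and 0.45 and 0.54 for the sparse Hspa1b. Differences within these errors were not detectable, and larger ones could also go uncalled, as did that of Hsp90aa1 at ZT10 (-0.31 ± 0.09). These SEs are therefore not the limit of detection.

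Over the 18 hearts, which differ in age, time and NR, the genes ran in sets. Given as a description over these shared groups, Hsph1 and Hsp90aa1 had a Pearson r of 0.86 between their log2 normalised values, Hsp90ab1 and Hspd1 of 0.93, Hspd1 and Hspe1 of 0.85, and Hspa1b and Dnajb1 of 0.83. Hsp90ab1 and Hspd1 also followed the library totals. They had 4005 and 1519 normalised read counts in the heart with the lowest total, 3922137, and 2575 and 1175 in that with the highest, 7562215. The part of library total in these r values was not tested. Cirbp ran opposite to Hsp90aa1 (-0.87), Hspa1b (-0.86) and Hsph1 (-0.86). Among 11047 other genes with a mean of at least 50 normalised read counts, the most like Cirbp were Gpr155 (0.95), Pla2g4e (0.94) and Patz1 (0.92), and the most like Rbm3 were Bscl2 (0.89), Ldb1 (0.88) and Elp2 (0.87). Those most like Hsph1 were P4ha1 (0.95), Tnfrsf12a (0.94) and Pknox1 (0.92), and those most like Hspa1b were Crem (0.92), Olfml2b (0.88) and Otud1 (0.88). Hspa1b had 162 and 101 normalised read counts in young ZT22 replicates 2 and 3 and between 11.3 and 38.5 in the other 16 hearts. The part of these replicates in its r values was not tested.

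The rest of the chaperone network, 64 genes in 8 lists, was described in the same comparisons. In young hearts 15 of the 64 genes were lower at ZT10 and 0 were higher, against 7.57% of all genes lower, and the median log2 fold change of the 64 was -0.07. The 6 called genes with the widest change were Chordc1 (-0.67), a partner of Hsp90, the Hsp40 genes Dnaja1 (-0.63) and Dnajb5 (-0.46), Grpel2 (-0.42), a nucleotide exchange factor of the mitochondrial Hsp70, the small heat shock gene Hspb1 (-0.40) and Hsf1 (-0.39), the gene of HSF1 itself. Of 8 subunits of TRiC, the cytosolic chaperonin, none was called. With the first ZT22 heart alone, fewer of the 64 were called, as over all genes. The immediate-early list moved in the same direction, with 6 of 10 lower at ZT10, and fewer with the first ZT22 heart alone.

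**Figure D3:**
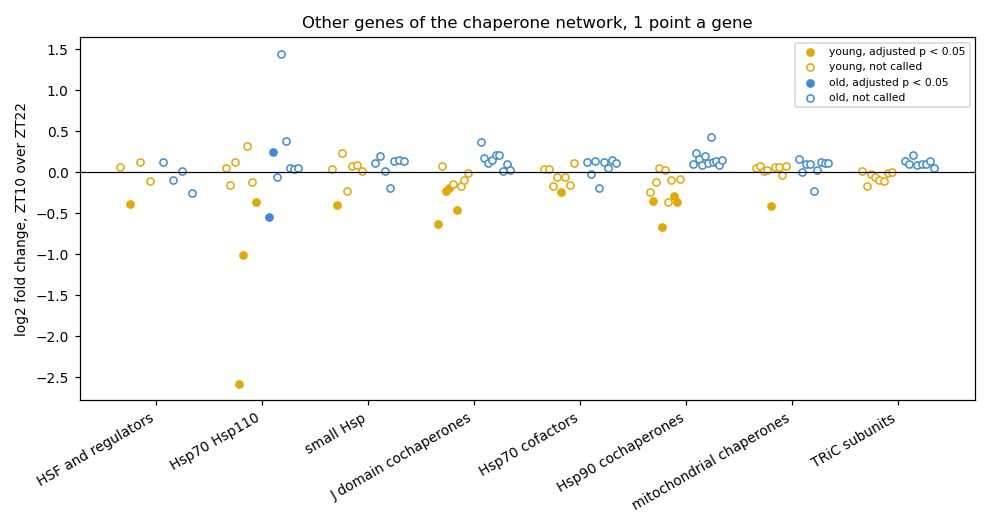
Log2 fold change between ZT10 and ZT22 (vertical axis, positive where ZT10 was higher) of the other chaperone genes by list, in young and in old hearts without NR, 1 point a gene; filled points passed an adjusted p of 0.05 by edgeR. The 15 called genes of young hearts all lie below 0, and old hearts have 1 called gene on each side.

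In old hearts without NR, 1 of the 64 genes was higher at ZT10, Hspa12b (0.24), and 1 was lower, Hspa12a (-0.55), both distant relatives of Hsp70. Of all genes, 1.56% were higher and 2.64% lower, so these counts were near the share of all genes. In old NR hearts, Hspa12b (0.26) and Dnajb5 (0.37) were higher and Hspa12a (-0.42) and Grpel2 (-0.31) lower, against 2.36% and 3.01% of all genes. The age by time interaction was called upwards for 13 of the 64 and downwards for 1, against 3.13% of all genes upwards. Those with the widest change were Dnaja1 (0.99), Chordc1 (0.87), Dnajb5 (0.67), Hspa12a (-0.60), Hspb1 (0.60) and Ahsa2 (0.59), which activates Hsp90. Of the immediate-early genes, 5 of 10 were called upwards. With the first young ZT22 heart alone, fewer of the 64 were called, as over all genes.

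Between ages, 2 of the 64 genes were higher in old hearts at ZT10, Hspa4l (0.35), of the Hsp110 family, and Chordc1 (0.30), against 2.95% of all genes, and 0 were lower. At ZT22, 17 were lower in old hearts, against 6.17% of all genes, and 1 was higher. They included Dnaja1 (-0.68), Chordc1 (-0.57), Dnajb5 (-0.57), Hspb1 (-0.42) and Ahsa2 (-0.42), and the gene that was higher was Hspa12a (0.45). With the first young heart alone, fewer of the 64 were called, as over all genes. NR left 0 of the 64 called at either time by edgeR. At an unadjusted p under 0.05 edgeR named 2 at ZT10 and 1 at ZT22, against 10.1% and 11.2% of all genes.

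In the libraries labelled HL-1, the question was how loss of NAD+ salvage, the addition of NR and inhibition of SIRT1 altered expression. Calls were made at an adjusted p under 0.01 and a change of over 1.5-fold. By that rule, 0 of the 10 genes were called in any of the 6 comparisons by edgeR and by DESeq2, against 4.59% of the 14760 genes tested for FK against Ctrl and 4.81% for FK_NR against FK. The shares were 1.27% for FK_NR_Ex against FK, 0.596% for FK_NR_Ex against FK_NR, 0.901% for FK_NR against Ctrl and 1.42% for FK_NR_Ex against Ctrl. At an unadjusted p under 0.05, edgeR named 3, 8, 4, 5, 5 and 2 of the 10 in these comparisons, in the order given, and 36.6%, 40.2%, 27.1%, 23.2%, 39.3% and 33.1% of all genes. The differences were smaller than 1.5-fold but many exceeded the spread between libraries. The rest of the account of the 10 genes uses an adjusted p under 0.05 with no minimum fold.

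**Figure D4:**
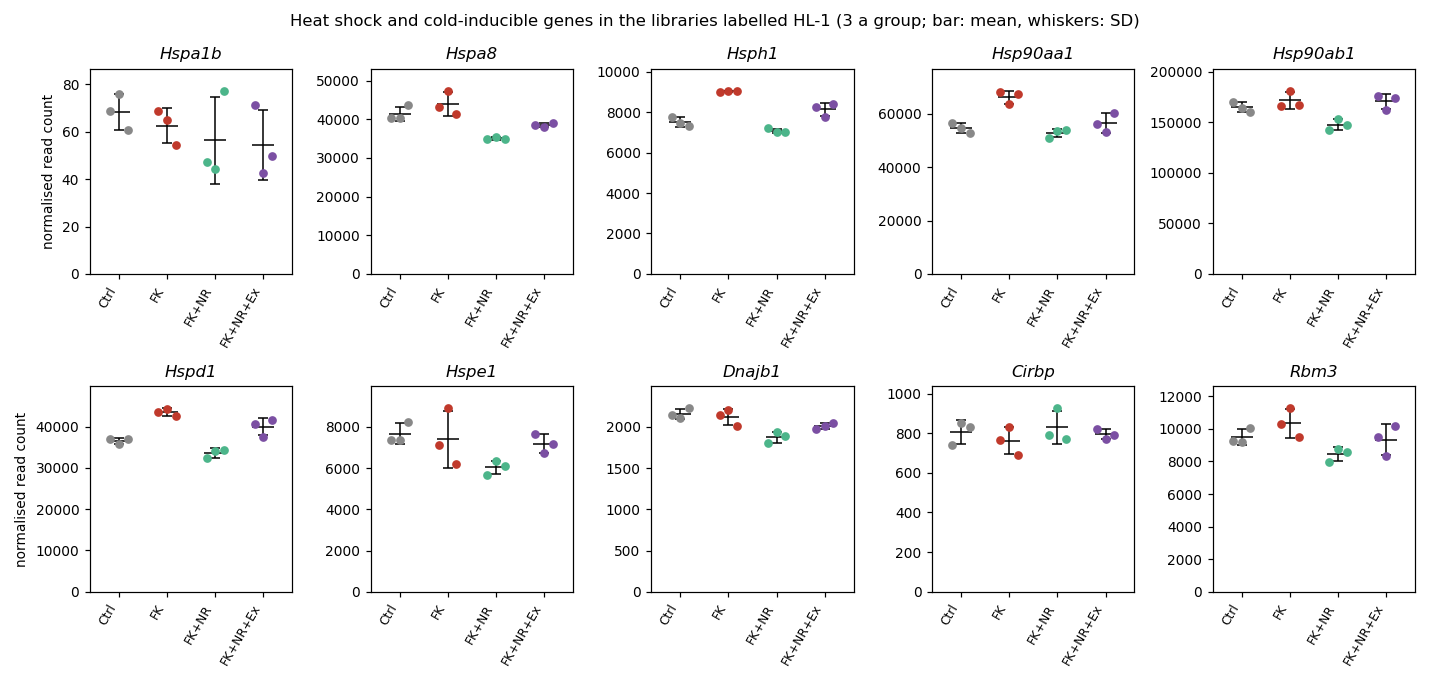
Normalised read counts (vertical axis, from 0) of the 10 genes in each of the 12 libraries labelled HL-1, by treatment; points are libraries, the bar is the mean and the whiskers the SD of 3. Hsph1, Hsp90aa1 and Hspd1 were highest with FK, and Hspa8 and Hsp90ab1 lowest with FK_NR.

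With FK866, 3 of the 10 genes were higher than in Ctrl, against 24.8% of all genes changed by this rule. Hsph1 had 7785, 7475 and 7309 normalised read counts in Ctrl and 9011, 9070 and 9056 in FK, without overlap, a log2 fold change of 0.27 ± 0.05 (adjusted p = 0.00154 by edgeR). Hsp90aa1 rose by 0.28 ± 0.06 (adjusted p = 0.00229) and Hspd1 by 0.25 ± 0.05 (adjusted p = 0.00267), also without overlap. Their share of the 10 was near that of all genes, and all 3 kept their call in each of the 6 fits that left out 1 library. The sum of the 10 immediate-early genes was between 2415 and 2514 in Ctrl, 3124 and 3243 with FK, 2370 and 2651 with FK_NR and 2718 and 3280 with FK_NR_Ex. The sum of the 4 fibroblast markers was between 21886 and 23303 in Ctrl, 16956 and 17402 with FK, 20526 and 21207 with FK_NR and 21454 and 23813 with FK_NR_Ex. By the first rule, 2 of the 4 were lower with FK than in Ctrl and 2 were higher with FK_NR than with FK. The part of either sum in the results on these libraries was not tested.

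With NR added to FK866, 8 of the 10 genes were lower than with FK866 alone, all but Hspa1b and Cirbp, against 28.9% of all genes changed and 15% lower. The log2 fold changes of the 8 lay between -0.37 for Hspd1 and -0.18 for Dnajb1. Hspd1 had 43570, 44300 and 42461 normalised read counts with FK and 32305, 34043 and 34434 with FK_NR (adjusted p = 0.000122 by edgeR). Hspa8 had 43259, 47446 and 41421 with FK and 34820, 35372 and 34962 with FK_NR, a log2 fold change of -0.33 ± 0.06. The groups of Hspe1 overlapped, and its adjusted p was 0.0446 by edgeR. Rbm3 had a log2 fold change of -0.29 ± 0.08 (adjusted p = 0.0134) and Cirbp one of 0.12 ± 0.09. Leaving out 1 library at a time, between 5 and 8 of the 10 were called. Hspe1 and Dnajb1 were each lost in 5 of 6 fits and Rbm3 in 2, without FK replicate 2 and without FK_NR replicate 1, where all 3 were lost. Hspa1b had between 39 and 84 counts a library and a log2 fold change of -0.13 ± 0.25.

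Adding Ex527 to FK866 and NR gave 3 genes that were higher than with FK_NR, against 7.17% of all genes changed: Hspd1 (0.25 ± 0.05, adjusted p = 0.00992 by edgeR), Hsp90ab1 (0.21 ± 0.05, adjusted p = 0.0291) and Hsph1 (0.20 ± 0.05, adjusted p = 0.0286). Hspd1 had 40696, 37570 and 41674 normalised read counts with FK_NR_Ex, between its levels with FK_NR and FK in all 3 libraries. Without FK_NR replicate 1, FK_NR_Ex replicate 1 or FK_NR_Ex replicate 3, 0 of the 10 were called by edgeR: Hspd1 was lost in 3 of 6 fits and the other two in 5. Against FK, 2 of the 10 were lower with FK_NR_Ex, Hspa8 (-0.19 ± 0.06) and Hsp90aa1 (-0.23 ± 0.06), with 12.2% of all genes changed, and 0 were called without FK replicate 1, FK_NR_Ex replicate 1 or FK_NR_Ex replicate 2. Against Ctrl, FK_NR had 4 genes that were lower, with 23.9% of all genes changed: Hspe1 (-0.34 ± 0.10), Hspa8 (-0.24 ± 0.06), Dnajb1 (-0.20 ± 0.06) and Hsp90ab1 (-0.16 ± 0.05). Every fit that left out 1 library lost at least 1 of the 4 calls, and without Ctrl replicate 3 or FK_NR replicate 1 all 4 were lost. For FK_NR_Ex against Ctrl, edgeR called 0 of the 10, with 16.3% of all genes changed. The comparisons share libraries and their values stand side by side without a test between them.

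Of the other chaperone genes, 63 were tested in the HL-1 libraries, and by the first rule few were called. The small heat shock gene Cryab was higher with FK than in Ctrl (0.62), lower with FK_NR than with FK (-0.95) and higher with FK_NR_Ex than with FK_NR (0.65), and Hspa2, the Hsp70 of the testis, was lower with FK than in Ctrl (-0.59). Against Ctrl, 0 of the 63 were called with FK_NR and 1 with FK_NR_Ex by edgeR. At an unadjusted p under 0.05, edgeR named 36 of the 63 with FK_NR, a larger share than the 39.3% of all genes tested. With FK_NR_Ex it named 20 of the 63, near the 33.1% of all genes.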

How the data were processed

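Heart libraries were stranded mRNA libraries read from a single end. The authors trimmed (Trimmomatic 0.39), aligned to mm10 (STAR 2.7.10a), removed duplicates (Picard 3.0.0) and multi-mapping reads, and counted reads over exons of single genes (featureCounts 2.0.4). Removal of duplicates lowers the counts of the most abundant genes most. The authors deposited raw gene counts and, separately, normalized values (unit score), divided by DESeq2 size factors (DESeq2 1.36.0) and rounded. The table named as normalized holds the counts, with totals from 3922137 to 7562215 and size factors from 0.680 to 1.445, and that named as raw holds the scores, with size factors from 1.005 to 1.008. For HL-1 the authors deposited counts and FPKM from unstranded or stranded paired-end libraries aligned with HISAT2; the counting tool is not given in the sources used here.

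Counts were fitted with edgeR 4.0.16 (quasi-likelihood test, TMM, two-sided) in R 4.3.3, all 18 hearts in 1 fit and all 12 HL-1 libraries in another. The heart test kept the 15443 genes whose average count exceeded 5, with calls at a Benjamini-Hochberg adjusted p under 0.05. In HL-1, genes passing filterByExpr (14760) were called at an adjusted p under 0.01 and over 1.5-fold. Normalised read counts are TMM-normalised counts. Exon lengths and positions are from GENCODE M21 (GRCm38). The fit was tested on simulated data. Alternatives were DESeq2 1.42.0, its size factors, other filters, only the groups compared, a replicate block and leaving out each library. Members, lists and tests were chosen with earlier results of these data known. All 10 members are named in every comparison, other chaperone genes by at most the 6 called genes with the largest change and a mean of at least 50 normalised counts, and like genes by the 3 highest r.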

Additional observations from a re-analysis of the deposited data

Results flagged for a closer look

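The daily difference, ZT10 against ZT22, differed between old hearts without NR and young hearts for 5 of the 10 genes by a test of the interaction itself. The interaction was 3.25 on the log2 scale for Hspa1b, 1.24 for Hsph1, 1.13 for Hsp90aa1, 0.88 for Dnajb1 and -1.37 for Cirbp. For Hspa1b and Dnajb1 it was smaller without young ZT22 replicates 2 and 3, at 1.22 and 0.34, in a fit chosen after the values were seen. Both kept their call in each of the 12 fits that left out 1 heart. For Dnajb1 the time difference of old hearts, 0.51, also entered the interaction. The part of these replicates beside the immediate-early genes was not tested. Groups of 3 are too small to be searched for outliers.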

How the results depend on the processing

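Under DESeq2, DESeq2's size factors, no filter or another filter on low counts, a fit of only the groups compared and a replicate block, the direction of every called gene was kept, and the count of the 10 genes called stayed within 1.5 times its value, with these exceptions. DESeq2 called 1 gene between times in old hearts without NR instead of 2. With no minimum fold and an adjusted p under 0.05, the HL-1 counts were 3 for FK against Ctrl, 8 for FK_NR against FK, 2 for FK_NR_Ex against FK, 3 for FK_NR_Ex against FK_NR and 4 for FK_NR against Ctrl, instead of 0, and leaving out 1 library these ran from 3 to 3, 5 to 8, 0 to 2, 0 to 3 and 0 to 3. Leaving out 1 library at a time, the counts ran from 4 to 6 for time in young hearts, 0 to 2 for time in old hearts, 5 to 6 for age by time, 2 to 4 for age at ZT10 and 5 to 6 for age at ZT22. With the first young ZT22 heart alone, which was chosen after seeing the data, they were 3 for time in young hearts, 3 for age by time and 2 for age at ZT22. In that fit the lone heart is assumed to vary like the other groups, and fewer samples also lowered the calls over all genes. The replicate block, with the library number as a term, changed no call, and left 5 of the 10 called for time in young hearts. Correlations between deviations of same-numbered libraries were low, with 4 of 33 pairs of hearts and 3 of 18 pairs of HL-1 libraries over 0.1. Over all pairs, 15 of the 33 and 8 of the 18 correlated best with their own number. The highest, 0.163, was between the first hearts of old ZT22 with and without NR. Each of these hearts had the fewest counts of its group (3922137 without NR and 4364594 with NR). The part of such shared deviations in the results was not tested. Depth limits Hspa1b most, with as few as 9 counts in a heart.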
